A study of Mus musculus with 2 samples.

Results

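The nuclear genes for the 5 complexes of the mitochondrial respiratory chain and ATP synthase were examined in whole uterus of pregnant mice. Members were taken by symbol alone: all symbols that begin with Nduf followed by a, b, c, s or v, with Uqcr, with Cox4 to Cox8 or with Atp5, and the genes Sdha, Sdhb, Sdhc and Sdhd. This gave 90 of the 20634 genes listed, 46 for complex I, 4 for complex II, 8 for complex III, 18 for complex IV and 14 for complex V. The study has 1 RNA-seq library labelled Mettl3 ed/ed and 1 labelled Mettl3 f/f, both from whole uterus of mixed cell types on gestational day 4. The vaginal plug marked day 1, and the females had been mated at an age of 6 to 8 weeks. The labels do not say what ed/ed and f/f mean, whether a transgene was used and how many animals went into each library. Mettl3 is the catalytic subunit of the enzyme that writes N6-methyladenosine on RNA, and the question is which transcripts differ between uteri of both genotypes.

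The respiratory chain passes electrons from NADH (complex I) and succinate (complex II) through coenzyme Q, complex III, cytochrome c and complex IV to oxygen. Complexes I, III and IV pump protons, and complex V, the ATP synthase, uses the proton gradient to make ATP. Most subunits are encoded in the nucleus and imported, while a few, among them the catalytic subunits of complex IV, are encoded by mitochondrial DNA and are not analysed here. Several subunits of complex IV exist as a widely expressed isoform and a second one known from heart, skeletal muscle, brown fat, vessel walls, lung or testis. The uterus holds a thick wall of smooth muscle besides epithelium, stroma, vessels and immune cells, and becomes receptive to the blastocyst at about this time of pregnancy.

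Values are FPKM, fragments normalised to transcript length and to all mapped fragments, so levels of different genes are given per length. The steps between low values put the depth at about 17200000 fragments in ed/ed and 18200000 in f/f. Markers of epithelium, smooth muscle and stroma were present in both libraries, as a uterus holds them, but stroma markers summed to 421 FPKM in ed/ed and 872 FPKM in f/f. Mettl3 itself was at 10.2 FPKM in ed/ed and 10.6 FPKM in f/f, so its level did not separate the libraries and the genotypes rest on the labels. Each ratio is ed/ed over f/f on the log2 (FPKM + 1) scale, given for the 12165 genes that reached 1 FPKM in at least 1 library. Their median was -0.26, and 70.4% of them had a log2 ratio below 0. With 1 library per genotype there is no test and no estimate of the spread between animals, so a 2-fold rule of size is used and counts are set beside those of all genes. Ratios also ran with transcript length over all genes (Spearman's rho -0.22, n = 12158), and members, with a median transcript of 865 nt, were shorter than the 2964 nt of all genes compared. The complexes, the core and other subunits and several further groups are therefore also given with that trend removed. This takes out the overall offset too, leaving 50.2% of all genes below 0. The remaining groups are given as deposited only. In bulk tissue, fewer cells of a type and less RNA per cell cannot be told apart.

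The respiratory chain as a whole was transcribed at high and closely similar levels in both uteri. Its 90 genes made up 3.60% of all summed FPKM in ed/ed and 3.22% in f/f. The order of the 87 genes that could be compared was nearly the same in the 2 libraries (Spearman's rho 0.978 across genes, which share both libraries). Cox7c, a small subunit of complex IV, had the highest level in ed/ed, and Cox6c, another small subunit of that complex, had the highest in f/f. Cox7c was at 1091 FPKM in ed/ed and 1008 FPKM in f/f. Cox6c was at 969 FPKM in ed/ed and 1073 FPKM in f/f. These and other small subunits thus stood far above the catalytic subunits of complexes I and II described below, such as Ndufv1 at 29.7 FPKM in ed/ed and 40.5 FPKM in f/f.

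Of the 87 members compared, 0 passed 2-fold upward in ed/ed, where 2.68% of all genes did, and 3 passed it downward, where 6.22% of all genes did. Those 3 were Cox4i2, Ndufa4l2 and Cox8b, all of them low-level isoforms of abundant genes. Cox8b counts only on the scale with a pseudocount: it was listed at 0 in ed/ed and rests on about 3 fragments in f/f, through which alone it entered the comparison, and it is left out by a filter at 5 FPKM. The members' median log2 ratio was -0.02, above the all-gene median by 0.24, with 42 members above 0 and 45 below. Without the length trend the members' median was 0.02 and that of all genes was 0.00, so the members then lay close to all genes. At 1.5-fold, 6 members were higher, where 7.04% of all genes were: Cox7a1, Uqcrq, Ndufaf4, Cox8a, Ndufa12 and Ndufa3. At the same size, 9 were lower, where 23.4% of all genes were: Cox8b, Cox4i2, Ndufa4l2, Ndufaf3, Ndufa10, Sdha, Ndufs8, Atp5b and Atp5a1.

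**Figure D1:**
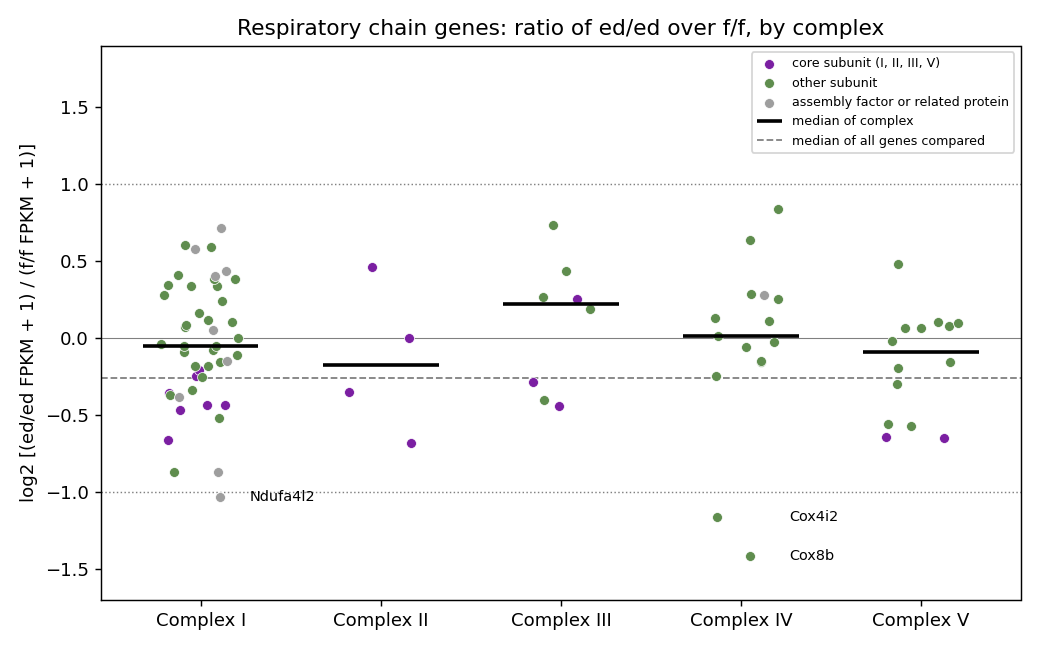
Log2 ratio of ed/ed over f/f (FPKM + 1) for the 87 respiratory chain genes compared, 1 point per gene, by complex. Bars are the medians of the complexes, the dashed line is the all-gene median of -0.26 and dotted lines mark 2-fold; Cox4i2, Ndufa4l2 and Cox8b (listed at 0 in ed/ed) lie past the lower dotted line and no gene lies past the upper one.

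By complex, the median log2 ratio was -0.05 for the 46 genes of complex I, -0.17 for the 4 of complex II, 0.22 for the 8 of complex III, 0.01 for the 15 compared of complex IV and -0.09 for the 14 of complex V. Relative to the all-gene median they stood 0.21, 0.09, 0.48, 0.27 and 0.17 higher in that order. Scaling ed/ed so that the median ratio of all genes is level, a shift of 0.30 on the log2 scale, puts all 5 medians above 0, from 0.12 for complex II to 0.52 for complex III. With the length trend removed, the medians were 0.01, -0.01, 0.18, 0.01 and 0.01 in the same order. The complexes thus lay near all genes of their length, with complex III highest, and the spread within each complex was wider than the distance between their medians.

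Subunits that carry the active sites, form the conserved core or are named core proteins were set beside the others. In complexes I, III and V the core median was lower, at -0.43, -0.28 and -0.64, against 0.04, 0.27 and 0.02. This core is 3 genes in complex III and 2 in complex V, where Atp5c1 and Atp5o count among the others. In complex III the catalytic Uqcrfs1 was above 0 (0.26). The lower core median of complex III rests on Uqcrc1 (-0.44) and Uqcrc2 (-0.28), which are core proteins by name. All 4 genes of complex II are core and none of complex IV is, so neither can be split. Of the 16 core subunits of complexes I, II, III and V, 13 had a log2 ratio below 0, where 70.4% of all genes did. Uqcrc1 and Uqcrc2 are among these 13. The 16 had a median of -0.40. Of the 61 other subunits compared, 28 were below 0, with a median of 0.07. The core of complex IV is encoded by mitochondrial DNA, so Cox4i1, Cox5a and Cox5b, its conserved nuclear subunits, stand among the others. Counted with the core, they give 14 of 19 below 0 (median -0.35), against 27 of 58 (median 0.04). Relative to the all-gene median, 11 core subunits and 10 of the others were lower. Under that scaling by the median ratio, 10 core subunits (median -0.10) and 10 others (median 0.36) were below 0. Core subunits summed to 1373 FPKM in ed/ed and 1733 FPKM in f/f, whereas all 64 other subunits summed to 15493.5 FPKM in ed/ed and 14410 FPKM in f/f. With the trend on transcript length removed, 13 core subunits were still below 0 (median -0.25), against 25 other subunits (median 0.04). Of all genes, 50.2% were then below 0. With the trend on coding length removed, a choice made after seeing the data, the counts below 0 were 13 and 21, and the medians -0.17 and 0.09. Core subunits are the longer ones, with a median coding sequence of 1102.5 nt, against 348 nt for the others.

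Across the 87 members compared, the log2 ratio ran with coding length (Spearman's rho -0.46), and less so with transcript length (rho -0.29). Over all genes the values were -0.19 for coding length and -0.22 for transcript length. With the trend on transcript length removed, the relation to coding length was -0.36 in members and -0.05 in all genes. The points share both libraries, so these values are descriptions. Members followed the all-gene medians by class of transcript length: the 33 members of 501 to 800 nt had a median of 0.07, beside 0.02 for all 363 genes of that class, and the 18 of 1201 to 2000 nt had -0.22, beside -0.15 for 2167 genes. The part of RNA length or quality in the lower core subunits was not tested beyond these removals.

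**Figure D2:**
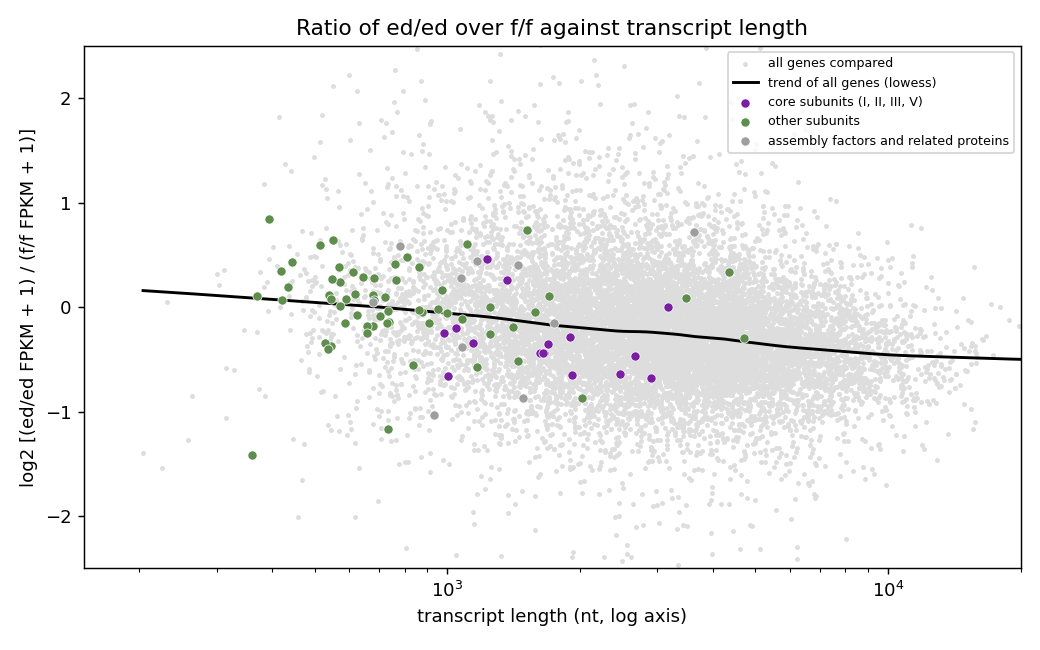
Log2 ratio of ed/ed over f/f (FPKM + 1) against transcript length in nt (log axis) for all genes compared (light points) and for respiratory chain genes (coloured by role), with the lowess trend of all genes; genes beyond the plotted range are not drawn. Core subunits lie mostly under the trend line, with 13 of 16 below it, and the other subunits lie on both sides.

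Complex I takes electrons from NADH in its peripheral arm and pumps protons in its membrane arm. Its 7 nuclear-encoded core subunits hold the flavin, the iron-sulfur clusters and part of the quinone site. All 7 were lower in ed/ed in the values as deposited, where 70.4% of all genes were below 0. Of the 7, 2 lay above the all-gene median. Ndufs8, which holds a pair of iron-sulfur clusters on the way to quinone, was at 53.8 FPKM in ed/ed and 85.6 FPKM in f/f, a log2 ratio of -0.66. Ndufs1, the largest core subunit, was at 18.8 FPKM in ed/ed and 26.4 FPKM in f/f (-0.47). The NADH-binding subunit Ndufv1 was at 29.7 FPKM in ed/ed and 40.5 FPKM in f/f (-0.43). Its iron-sulfur partner Ndufv2 was at 55.1 FPKM in ed/ed and 70.8 FPKM in f/f (-0.36). Ndufs7, which holds the last iron-sulfur cluster before quinone, was at 87.6 FPKM in ed/ed and 104 FPKM in f/f (-0.25). Ndufs3, a scaffold of the quinone-reducing module, was at 51.3 FPKM in ed/ed and 59.2 FPKM in f/f (-0.20). As a group the 7 had a median of -0.43, 0.17 below the all-gene median. With the length trend removed their median was -0.23, again with all 7 below 0, where 50.2% of all genes were. Scaling by the median ratio turned Ndufs3 and Ndufs7 above 0, leaving 5 of the 7 below.

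The 29 other structural subunits of complex I, without Ndufa4, were at 14.1 to 770 FPKM in ed/ed and 17.7 to 510 FPKM in f/f. Of these, 15 were above 0 and 14 below, with a median of 0.00. Of the 29, 0 passed 2-fold, where 2.68% of all genes were higher and 6.22% lower by that size. The most abundant was Ndufa3, a small membrane-arm subunit, at 770 FPKM in ed/ed and 510 FPKM in f/f (0.59). Ndufa12, which sits on the peripheral arm where the assembly factor Ndufaf2 leaves, was at 27.4 FPKM in ed/ed and 17.7 FPKM in f/f (0.60). At the other end stood Ndufa10, a kinase-like subunit on the matrix face of the membrane arm, at 41.6 FPKM in ed/ed and 76.9 FPKM in f/f (-0.87). Ndufa9, a nucleotide-binding subunit beside the quinone site, was at 31.3 FPKM in ed/ed and 45.3 FPKM in f/f (-0.52). Ndufa10 and Ndufa9 have long coding sequences for this class, 1065 nt and 1131 nt, and with the transcript-length trend removed their values were -0.67 and -0.39. Ndufab1, the acyl carrier protein that also serves mitochondrial fatty acid synthesis, was at 114 FPKM in ed/ed and 107 FPKM in f/f (0.09).

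By module, the 10 genes of the NADH-oxidising module had a median of 0.01, with 5 above 0 and 5 below. The 6 genes of the quinone-reducing module were all below 0 as deposited, where 70.4% of all genes were, with a median of -0.34. When scaled by the median ratio, 3 of the 6 were above 0. The 20 genes of the membrane arm had a median of -0.02, with 10 above 0 and 10 below. The quinone module summed to 429 FPKM in ed/ed and 536 FPKM in f/f, while the membrane arm summed to 3195.5 FPKM in ed/ed and 2864 FPKM in f/f. The quinone module shares 4 of its genes with the core list, so its count is not a separate result.

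**Figure D3:**
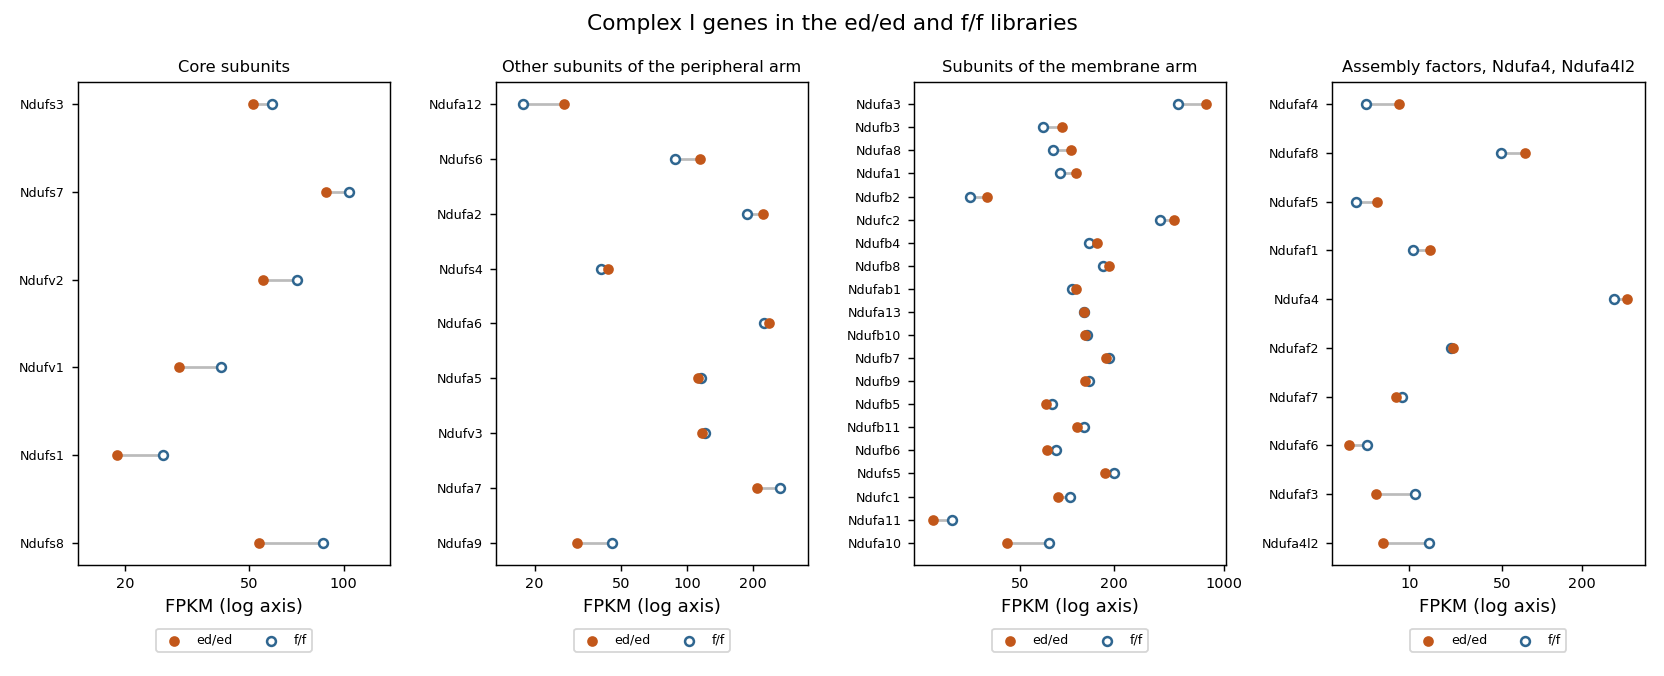
FPKM (log axis, with its own range in each panel) of complex I genes in ed/ed (filled) and f/f (open), sorted by ratio within each panel. In the core panel all 6 filled points shown lie left of the open ones, whereas the other panels hold both orders.

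Assembly factors build complex I and are absent from the finished enzyme. The 8 Ndufaf genes were at 3.48 to 74.5 FPKM in ed/ed and 3.98 to 49.4 FPKM in f/f. Their median log2 ratio was 0.23, with 5 above 0 and 3 below. With the length trend removed it was 0.28, with 6 above 0 and 2 below. Ndufaf3 and Ndufaf4, whose proteins bind each other on the early quinone module, lay at opposite ends. Ndufaf4 was at 8.38 FPKM in ed/ed and 4.70 FPKM in f/f (0.72). Ndufaf3 was at 5.60 FPKM in ed/ed and 11.1 FPKM in f/f (-0.87). Ndufaf8, the partner of Ndufaf5, was at 74.5 FPKM in ed/ed and 49.4 FPKM in f/f (0.58), the highest level of the 8. Ndufaf5, which modifies the core subunit Ndufs7, was at 5.75 FPKM in ed/ed and 3.98 FPKM in f/f (0.44). The assembly factors thus differed in direction among themselves, and 6 of the 8 lay above the all-gene median. Ndufaf3 overlaps a gene on the other strand, as do Ndufa4l2, Sdha, Atp5a1 and Atp5o among the genes with low ratios. Since it is not stated whether strand was kept, reads of a shared stretch cannot be told apart.

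Complex II is the only one encoded wholly in the nucleus and also runs in the citric acid cycle. Its catalytic flavoprotein Sdha was at 46.8 FPKM in ed/ed and 75.7 FPKM in f/f (-0.68). The iron-sulfur subunit Sdhb was at 49.1 FPKM in ed/ed and 62.8 FPKM in f/f (-0.35). The membrane anchor Sdhc was level, at 97.8 FPKM in ed/ed and 97.5 FPKM in f/f (0.00). The other anchor, Sdhd, was at 151 FPKM in ed/ed and 109 FPKM in f/f (0.46). The soluble catalytic pair was therefore lower in ed/ed and the anchors were level or higher, and the anchors were the more abundant pair in both libraries. With the length trend removed the values were -0.44 for Sdha, -0.27 for Sdhb, 0.26 for Sdhc and 0.55 for Sdhd. Sdha, often used as a reference gene in expression studies, had the lowest ratio of the 4.

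In complex III, the core proteins Uqcrc1 and Uqcrc2 were lower in ed/ed, although Uqcrc2 came out above 0 when scaled by the median ratio. Uqcrc1 was at 63.4 FPKM in ed/ed and 86.4 FPKM in f/f (-0.44). Uqcrc2 was at 62.5 FPKM in ed/ed and 76.3 FPKM in f/f (-0.28). The catalytic Rieske iron-sulfur protein, Uqcrfs1, had the opposite sign, at 127 FPKM in ed/ed and 106 FPKM in f/f (0.26). Of the 5 small subunits, 4 were above 0. Uqcrq was at 77.6 FPKM in ed/ed and 46.2 FPKM in f/f (0.74). Uqcr11 was at 298 FPKM in ed/ed and 220 FPKM in f/f (0.44). Uqcrh, the hinge protein that meets cytochrome c and the most abundant member of this complex, was at 627 FPKM in ed/ed and 521 FPKM in f/f (0.27). Uqcrb, which lies near the quinone site, was the small subunit below 0, at 175 FPKM in ed/ed and 232 FPKM in f/f (-0.40). All 5 small subunits have 1 or more near-identical copies elsewhere in the genome, 4 for Uqcrb, so the way multiply mapped reads were shared could move their values.

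Complex V joins the catalytic F1 head to the membrane-embedded rotor. The head subunits alpha and beta, which make ATP, were the lowest of the complex. Atp5b, the beta subunit, was at 216 FPKM in ed/ed and 338 FPKM in f/f (-0.65). Atp5a1, the alpha subunit, was at 171 FPKM in ed/ed and 268 FPKM in f/f (-0.64). Atp5c1, the gamma subunit that turns inside the head, was at 97.6 FPKM in ed/ed and 146 FPKM in f/f (-0.57). Atp5o, which ties the head to the side stalk, was at 128 FPKM in ed/ed and 189 FPKM in f/f (-0.56). These 4 are the lowest ratios of the complex, so that they lie together and below 0 follows in part from their choice. With the length trend removed they were between -0.53 and -0.41. The largest of the 4 scalings shifts log2 ratios by 0.30, less than the size of each of these ratios, so none could turn above 0. Their median was -0.31 by the median ratio. The 5 listed F1 subunits, which include Atp5d and Atp5e but not Atp5o, had a median of -0.57, with 4 below 0 and 1 above. The delta subunit Atp5d was closer, at 200 FPKM in ed/ed and 229 FPKM in f/f (-0.19). The small epsilon subunit Atp5e was level and the most abundant of the complex, at 726 FPKM in ed/ed and 694 FPKM in f/f (0.07). Atp5j, coupling factor 6 of the side stalk, had the highest ratio, at 306 FPKM in ed/ed and 219 FPKM in f/f (0.48). The remaining 4 subunits outside the rotor ring, Atp5h, Atp5j2, Atp5k and Atp5l, lay between -0.02 and 0.10. Atp5l has 14 near-identical copies, the most of any member.

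The rotor ring of complex V is built from 1 protein made by 3 genes, whose mature products are the same and whose import sequences differ. Atp5g1 was at 75.1 FPKM in ed/ed and 92.6 FPKM in f/f (-0.30). Atp5g2 was at 358 FPKM in ed/ed and 398 FPKM in f/f (-0.15). Atp5g3 was at 342 FPKM in ed/ed and 319 FPKM in f/f (0.10). Atp5g2 was highest in both libraries and Atp5g1 lowest, and the sum of the 3 was 775 FPKM in ed/ed and 809 FPKM in f/f. Atp5g3 made up 44.1% of the sum in ed/ed and 39.4% in f/f. Their coding sequences share 67.4 to 68.9% of aligned bases, so most reads can be told apart, although Atp5g1 and Atp5g2 each have 4 near-identical copies elsewhere.

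**Figure D4:**
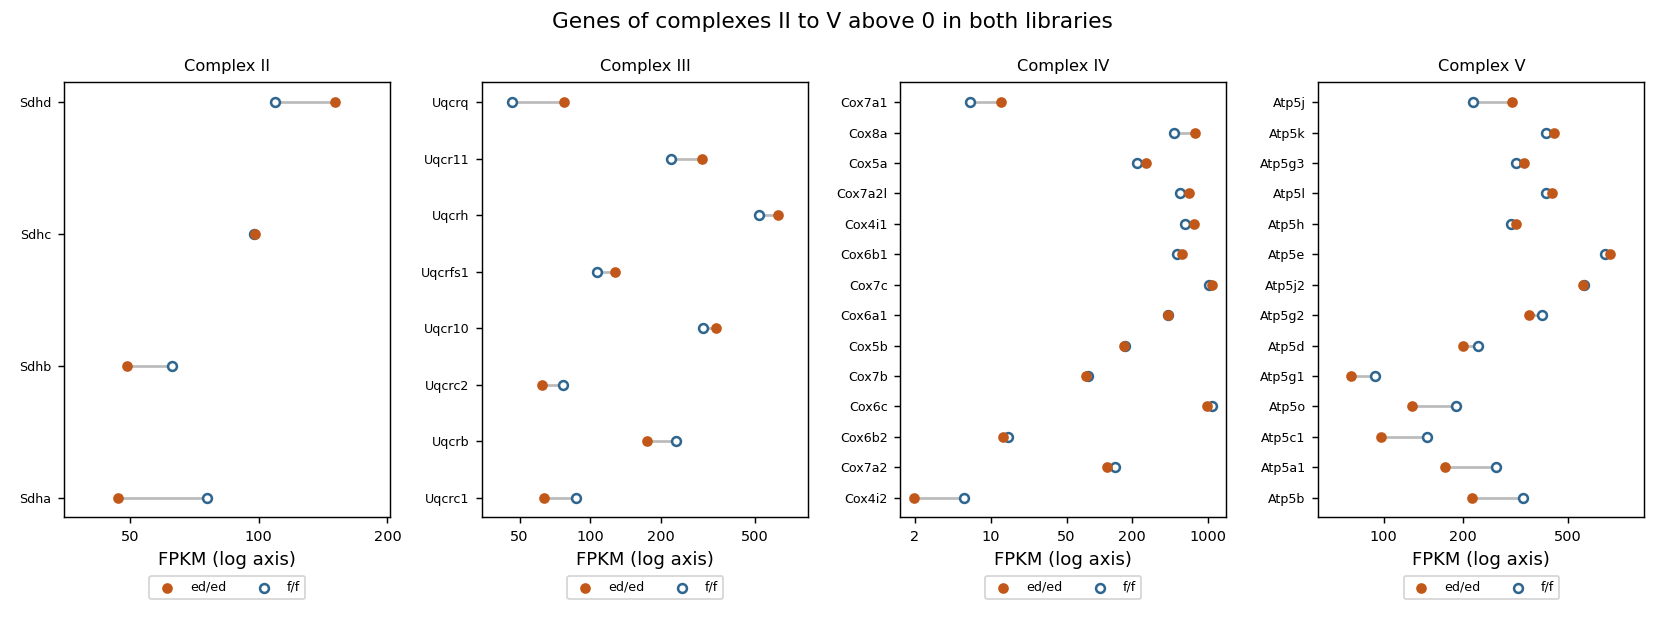
FPKM (log axis, with its own range in each panel) in ed/ed (filled) and f/f (open) for genes of complexes II to V above 0 in both libraries, sorted by ratio. The filled points of Sdha, Sdhb, Uqcrc1, Uqcrc2, Atp5b, Atp5a1, Atp5c1 and Atp5o lie left of the open ones, and those of Sdhd, Uqcrq, Cox8a and Atp5j lie right of them.

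Complex IV passes electrons to oxygen. Its nuclear subunits surround a catalytic core that is encoded by mitochondrial DNA. Cox4i1, the subunit through which ATP is known to act on the enzyme, was at 738 FPKM in ed/ed and 617 FPKM in f/f (0.26). Cox5a was at 268 FPKM in ed/ed and 220 FPKM in f/f (0.29). The zinc-binding Cox5b was level, at 167 FPKM in ed/ed and 170 FPKM in f/f (-0.02). Unlike the core of complex I, these 3 subunits of complex IV were thus level or higher in ed/ed. Cox8a, the common form of the smallest subunit, was at 758 FPKM in ed/ed and 486 FPKM in f/f (0.64). Cox7a2 was the lowest of the widely expressed subunits, at 118 FPKM in ed/ed and 140 FPKM in f/f (-0.25). Cox7a2l, which helps complex III and complex IV to form a supercomplex, was at 671 FPKM in ed/ed and 551 FPKM in f/f (0.28). Ndufa4 was first described in complex I and is known to bind complex IV, and it was at 443 FPKM in ed/ed and 351 FPKM in f/f (0.34).

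Isoforms known from particular tissues were all minor in these uteri. The lung and vessel isoform Cox4i2, known for its rise under low oxygen, was at 1.97 FPKM in ed/ed and 5.65 FPKM in f/f (-1.17). By the depth estimate these values rest on about 16 fragments in ed/ed and 50 in f/f, and the 95% exact counting interval of the plain ratio was 0.180 to 0.606. Cox4i2 made up 0.266% of the summed Cox4i1 and Cox4i2 level in ed/ed and 0.907% in f/f. Ndufa4l2, the relative of Ndufa4 that is induced under low oxygen, was at 6.34 FPKM in ed/ed and 14.0 FPKM in f/f (-1.03). It rests on about 75 fragments in ed/ed and 175 in f/f, with an interval of 0.342 to 0.599. Its log2 ratio stayed below 0 but missed 2-fold under all 4 scalings, at -0.96 to -0.77, and at -0.98 with the length trend removed. A gene on the other strand overlaps it, and reads of the shared stretch cannot be told apart. Ndufa4l2 made up 1.41% of its summed level with Ndufa4 in ed/ed and 3.84% in f/f. In both pairs the minor isoform was lower in ed/ed while its abundant partner was higher. Cox4i2 and Ndufa4l2 are also known markers of pericytes, the contractile cells of small vessels.

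Other pericyte markers lay on the same side. The list of 9 had all 9 genes below 0, and without Cox4i2 and Ndufa4l2 all 7 were, where 70.4% of all genes were. Those 7 had a median of -0.83, 2 were at least 2-fold lower, and none was at 0. With the length trend removed, 6 of the 7 were below 0, where 50.2% of all genes were, and the median of the 7 was -0.47. Of the 6, Abcc9 was level at -0.0013, and Cspg4 was above 0 at 0.05. Abcc9, Cspg4, Kcnj8 and Notch3 were low, at 0.91 to 1.97 FPKM in ed/ed and 1.95 to 3.06 FPKM in f/f. The 7 summed to 49.6 FPKM in ed/ed and 114 FPKM in f/f, led by Rgs5 at 31.0 FPKM in ed/ed and 77.7 FPKM in f/f. Among 8 endothelial markers compared, 6 passed 2-fold downward, and so did 5 of 9 stroma markers, where 6.22% of all genes did. All 9 endothelial markers listed summed to 74.5 FPKM in ed/ed and 182 FPKM in f/f. Hif1a, the oxygen-regulated factor, was at 84.0 FPKM in ed/ed and 219 FPKM in f/f (-1.37). The part of vessel cells, of stroma or of Hif1a in the lower Cox4i2 and Ndufa4l2 was not tested.

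The heart and muscle isoforms of complex IV differed among themselves. Cox7a1, also known from smooth muscle, was at 12.4 FPKM in ed/ed and 6.50 FPKM in f/f (0.84), the highest ratio of all members. It rests on about 31 fragments in ed/ed and 17 in f/f, with a counting interval of the plain ratio of 1.04 to 3.73. Cox7a1 made up 9.56% of its summed level with Cox7a2 in ed/ed and 4.44% in f/f. Beside it, 9 of 10 smooth muscle markers had a log2 ratio above 0, where 29.6% of all genes did. At least 2-fold higher was 1 of them, where 2.68% of all genes were, and their summed level was 980 FPKM in ed/ed and 606 FPKM in f/f, with no marker at 0. That marker was Cnn1, calponin, at 122 FPKM in ed/ed and 48.2 FPKM in f/f (1.32). Of 6 macrophage markers compared, 5 were above 0 and 2 at least 2-fold higher. Csf1r was lower, at 3.02 FPKM in ed/ed and 3.97 FPKM in f/f (-0.31), and Mrc1 was under 1 FPKM in both. The 7 listed summed to 285 FPKM in ed/ed and 142 FPKM in f/f. Most of this was Lyz2, at 188 FPKM in ed/ed and 86.6 FPKM in f/f. The part of smooth muscle or macrophages in the higher Cox7a1 was not tested.

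The other striated muscle and brown fat isoforms were near or at 0. Cox8b was listed at 0 in ed/ed and at 1.67 FPKM in f/f, about 3 fragments, so no fold is given. Cox6a2 was listed at 0 in ed/ed and at 0.591 FPKM in f/f and was not compared. The testis isoforms Cox7b2 and Cox8c were listed at 0 in both libraries. Cox6b2, known from testis, was low and level, at 13.0 FPKM in ed/ed and 14.6 FPKM in f/f (-0.15). Markers of the tissues that use Cox8b and Cox6a2 were low or absent. The 12 striated muscle markers summed to 13.6 FPKM in ed/ed and 16.3 FPKM in f/f, with Myh1, Myh2, Myh4, Myh6 and Myh7 at 0 in both. The 3 that reached 1 FPKM were above or near the level of Cox8b. Acta1 was at 5.96 FPKM in ed/ed and 9.28 FPKM in f/f, and Tnnt2 at 4.41 FPKM in ed/ed and 5.66 FPKM in f/f. Actn2 was at 2.08 FPKM in ed/ed and 0.809 FPKM in f/f. The 7 brown fat markers summed to 0.852 FPKM in ed/ed and 0.680 FPKM in f/f, with Ucp1, Cidea, Adipoq and Plin1 at 0 in both.

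**Figure D5:**
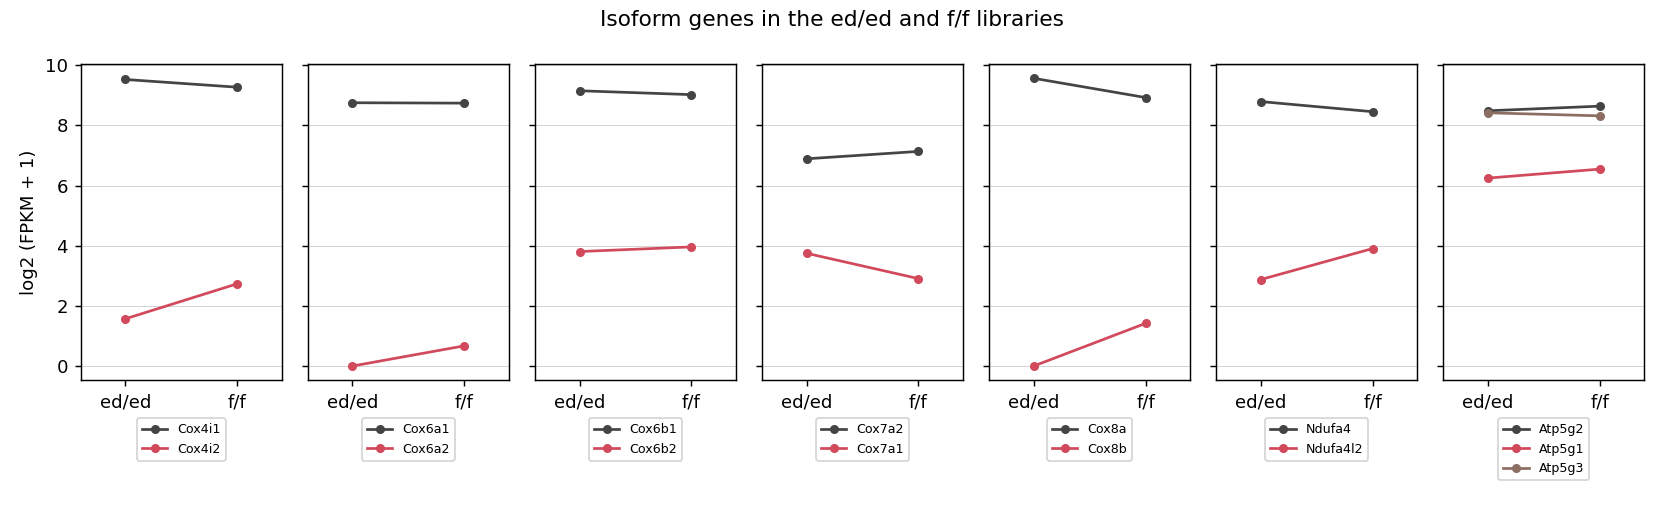
Level on the log2 (FPKM + 1) scale of minor isoforms and their widely expressed partners in the ed/ed and f/f libraries, 1 line per gene, with the 3 rotor ring genes of complex V in the last panel. Cox4i2 and Ndufa4l2 are lower in ed/ed and Cox7a1 is higher, each far below its partner in both libraries; Cox8b and Cox6a2 are listed at 0 in ed/ed.

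The promoters of an isoform pair differ in base composition, shown here for the pairs Cox8b with Cox8a and Cox7a1 with Cox7a2. Each line holds the 250 bases before the RefSeq start, 5′ to 3′ on the gene's strand, on GRCm38.p6. Cox8b lies at chr7:140900447-140900696 on the minus strand and Cox8a at chr19:7217617-7217866 on the minus strand. Cox7a1 lies at chr7:30183921-30184170 on the plus strand and Cox7a2 at chr9:79759854-79760103 on the minus strand.
Cox8b: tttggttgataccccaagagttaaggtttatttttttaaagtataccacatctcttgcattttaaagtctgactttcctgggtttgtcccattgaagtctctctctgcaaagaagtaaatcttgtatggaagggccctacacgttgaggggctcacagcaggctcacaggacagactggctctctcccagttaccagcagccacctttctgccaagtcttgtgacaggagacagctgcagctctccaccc
Cox8a: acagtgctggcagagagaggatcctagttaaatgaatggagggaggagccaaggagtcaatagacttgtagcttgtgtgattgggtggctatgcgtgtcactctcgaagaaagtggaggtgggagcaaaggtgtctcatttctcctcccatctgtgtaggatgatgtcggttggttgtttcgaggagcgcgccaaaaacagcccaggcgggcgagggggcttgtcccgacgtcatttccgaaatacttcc
Cox7a1: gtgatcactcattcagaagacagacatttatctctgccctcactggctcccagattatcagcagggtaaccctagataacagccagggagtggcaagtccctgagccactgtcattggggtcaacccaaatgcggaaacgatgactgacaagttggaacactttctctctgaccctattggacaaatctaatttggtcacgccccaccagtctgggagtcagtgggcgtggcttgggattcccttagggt
Cox7a2: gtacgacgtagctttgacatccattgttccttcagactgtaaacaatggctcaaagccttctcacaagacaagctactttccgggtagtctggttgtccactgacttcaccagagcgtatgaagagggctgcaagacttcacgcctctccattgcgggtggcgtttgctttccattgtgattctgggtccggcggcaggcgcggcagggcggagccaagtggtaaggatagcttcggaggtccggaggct
The Cox8b window holds 1 CpG and that of Cox8a 11, and the Cox7a1 window holds 4 and that of Cox7a2 14. Over the 74 members with an entry, the median was 14.25 CpG, beside 6 over 27025 genes. The minor isoform had fewer CpG in these 2 pairs and in Cox6b2, with 8 beside 14 for Cox6b1, but not in the testis isoform Cox7b2, with 9 beside 5 for Cox7b. Cox8b had the lowest count of all members with an entry. None of these 4 stretches holds a whole motif of those searched below, although ETS letters run across the start of Cox8a.

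Binding motifs of factors known for respiratory chain genes were searched on both strands in windows of 250 bases before to 50 after the start. The motifs were GCGCATGCG for NRF1, CCGGAAG for the ETS factor GABPA, AAGATGGCG for YY1, TCAAGGTCA for the estrogen-related receptors and ACTACAATT for ZNF143. None is part of another. The NRF1 letters were in 13.5% of members with an entry and 1.95% of all genes, the ETS letters in 24.3% and 9.93%, and the YY1 letters in 10.8% and 1.64%. The estrogen-related receptor letters were in 2.70% of members and 0.466% of all genes, and the ZNF143 letters in 2.70% and 0.448%. At least 1 of the 5 was in 33 of the 74 members, or 44.6%, beside 13.5% of all genes. A match is a description of letters and not of binding. The NRF1, ETS and YY1 letters hold CpG, and the windows of members held more of it (median 14.25, beside 6). All genes with an entry were counted here, whether expressed or not. The part of base composition in these shares was not tested. Examples from 3 complexes follow, with the matched letters in capitals, from Cox6a1 of complex IV at chr5:115348959-115349208, Sdhd of complex II at chr9:50603850-50604099 and Atp5j of complex V at chr16:84834977-84835226, all on the minus strand.
Cox6a1: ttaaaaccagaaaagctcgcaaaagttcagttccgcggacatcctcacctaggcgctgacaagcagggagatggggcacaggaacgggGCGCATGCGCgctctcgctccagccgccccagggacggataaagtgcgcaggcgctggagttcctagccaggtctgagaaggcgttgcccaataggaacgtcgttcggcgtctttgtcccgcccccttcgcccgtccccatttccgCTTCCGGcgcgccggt
Sdhd: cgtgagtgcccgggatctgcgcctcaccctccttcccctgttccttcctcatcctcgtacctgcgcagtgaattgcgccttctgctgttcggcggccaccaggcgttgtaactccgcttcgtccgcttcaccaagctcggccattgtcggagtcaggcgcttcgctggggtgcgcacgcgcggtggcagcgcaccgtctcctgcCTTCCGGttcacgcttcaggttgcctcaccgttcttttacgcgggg
Atp5j: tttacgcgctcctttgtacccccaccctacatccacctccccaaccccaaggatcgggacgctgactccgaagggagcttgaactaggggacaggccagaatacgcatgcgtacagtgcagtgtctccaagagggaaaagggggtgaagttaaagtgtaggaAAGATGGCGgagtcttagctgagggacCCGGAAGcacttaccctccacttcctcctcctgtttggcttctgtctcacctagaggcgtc
The Cox6a1 stretch holds the NRF1 letters on both strands, overlapping, and the ETS letters close to the start. The Sdhd stretch holds the ETS letters, and the Atp5j stretch, from 1 of 2 starts in the table, holds the YY1 and then the ETS letters. Of the 8 members with the YY1 letters, Atp5j alone had them before the start. Sdhd and Atp5j were among the higher members in ed/ed and Cox6a1 was level, at 431 FPKM in ed/ed and 427 FPKM in f/f (0.01). The 18 members with ETS letters that were compared had a median log2 ratio of 0.09, beside -0.04 for the 55 without. The 10 with NRF1 letters had 0.09, beside -0.02 for the 63 without. These medians differed by far less than the range of single members.

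The factors that read such motifs were themselves low to moderate in level. Nrf1 was at 6.99 FPKM in ed/ed and 11.5 FPKM in f/f (-0.65). Gabpa was at 11.2 FPKM in ed/ed and 17.1 FPKM in f/f (-0.56), and its partner Gabpb1 at 18.8 FPKM in ed/ed and 15.0 FPKM in f/f (0.31). Yy1 was at 18.1 FPKM in ed/ed and 21.5 FPKM in f/f (-0.24). Esrra, the estrogen-related receptor alpha, was at 39.1 FPKM in ed/ed and 25.3 FPKM in f/f (0.61). The coactivators Ppargc1a and Ppargc1b were under 1 FPKM in both libraries, as was Esrrg, and the related Pprc1 was at 5.62 FPKM in ed/ed and 4.16 FPKM in f/f (0.36). Of 16 regulators compared, Hif1a was the 1 at least 2-fold lower, where 6.22% of all genes were. None was 2-fold higher, where 2.68% were, and their median was -0.22. The factors for mitochondrial DNA were likewise under 2-fold: Tfam, which packs it, was at 8.54 FPKM in ed/ed and 10.5 FPKM in f/f (-0.27), and its RNA polymerase Polrmt at 2.95 FPKM in ed/ed and 5.08 FPKM in f/f (-0.62). Tfb1m, a methyltransferase of the mitochondrial ribosome, was at 6.59 FPKM in ed/ed and 11.6 FPKM in f/f (-0.74), and the transcription factor Tfb2m at 11.9 FPKM in ed/ed and 13.4 FPKM in f/f (-0.16). The genes that copy mitochondrial DNA were Polg, at 7.40 FPKM in ed/ed and 8.67 FPKM in f/f (-0.20), Polg2, at 9.83 FPKM in ed/ed and 6.52 FPKM in f/f (0.53), and the helicase Twnk, at 13.7 FPKM in ed/ed and 11.6 FPKM in f/f (0.22). Nfe2l2, known from the response to oxidative stress, was at 89.0 FPKM in ed/ed and 64.9 FPKM in f/f (0.45), and Myc at 28.0 FPKM in ed/ed and 37.4 FPKM in f/f (-0.41).

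Genes that work with the chain were examined from lists of related functions. Over all genes compared, 2.68% were at least 2-fold higher and 6.22% at least 2-fold lower. A count of 0 in a short list is therefore not a result about its genes. Of 7 electron carriers and entry enzymes compared, 0 passed 2-fold, and their median was -0.27. Cyc1, the cytochrome of complex III, was at 45.9 FPKM in ed/ed and 61.4 FPKM in f/f (-0.41), and cytochrome c itself, Cycs, at 25.5 FPKM in ed/ed and 18.9 FPKM in f/f (0.41). Cyc1 thus lay with Uqcrc1 and Uqcrc2. Of 13 genes for coenzyme Q synthesis, 0 passed 2-fold, with a median of -0.24. Coq7 was at 18.7 FPKM in ed/ed and 11.0 FPKM in f/f (0.72), and Coq6 at 5.99 FPKM in ed/ed and 12.7 FPKM in f/f (-0.97), both being hydroxylases of the quinone ring. Of 40 other assembly factors, 0 passed 2-fold, with a median of -0.03 as deposited and 0.16 with the length trend removed. The copper chaperone Cox17 was at 326 FPKM in ed/ed and 200 FPKM in f/f (0.70). Of 17 citric acid cycle genes, 0 passed 2-fold and 14 were below 0, where 70.4% of all genes were, with a median of -0.26. With the length trend removed, 10 of the 17 were below 0, where 50.2% of all genes were. Of 16 genes for the mitochondrial membranes and protein import, 0 passed 2-fold. Their median was -0.06 as deposited and 0.18 with the length trend removed.

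The fragment numbers behind these values were large for most members, with medians of 1293 in ed/ed and 1400 in f/f among the 87 compared. By the estimated depth, the 95% counting interval of the plain ratio lay wholly below 1 for 31 members, wholly above 1 for 32 and included 1 for 23, with Cox8b given none. The same count was not made over all genes, of which 70.4% had a log2 ratio below 0, so these counts are not a result about the members. These intervals cover counting error only and not the difference between animals, and 8 members had fewer than 100 fragments in either library. Members lie on 19 chromosomes, with 3 on the X. Another annotated gene overlaps 39 of them, on the other strand for 31, and 34 have a near-identical copy of at least 50% of their coding sequence.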

How the data were processed

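Total RNA of whole uterus was sequenced from 1 library per genotype, after TRIzol extraction and TruSeq preparation, per the labels' protocols. The deposited tables hold 1 value per gene, taken as FPKM: the authors used HISAT2 2.2.1 and Cufflinks 2.2.1, per the submitters' processing notes, and the unit is inferred from Cufflinks and from the values. The notes name the builds mm9 and mm10 without a role; the annotation, filters, strand and handling of multiply mapped reads are not stated. Because FPKM is relative to length and to the library's total, a few abundant genes or a loss of long transcripts can shift many values at once.

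Genes that reached 1 FPKM in at least 1 library were compared on log2(FPKM + 1), with a 2-fold rule of size and no test. Members and gene lists were chosen with earlier results of these data known. Named genes are, per complex, the most abundant, the 3 highest and 3 lowest ratios, core subunits and isoforms, up to 4 genes with the largest ratio per list, and all regulators; other genes named were chosen after their values were seen. Alternatives were other pseudocounts, filters, scalings, a 1.5-fold rule, length and GC trends, and narrower member lists.

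Lengths, coordinates and strands came from GENCODE M21 on GRCm38, matched by Ensembl identifier for 90 of 90 members, using the APPRIS principal transcript with the longest coding sequence. Since the build behind the values is unknown, coordinates locate genes and not reads. Trends were removed by lowess (fraction 0.3, statsmodels 0.14.6). Depth came from the steps between low values in genes with a transcript over 1000 nt, taking the effective length as 250 nt shorter, which is an assumption; intervals are 95% exact and cover counting error only. Near-identical copies had at least 90% identity over at least 50% of the coding sequence by BLAST+ 2.17.0. Promoter windows came from RefSeq on GRCm38.p6 and matched 74 of 90 members by symbol. The scripts (Python 3.11.15, pandas 2.3.3, SciPy 1.17.1) were tested on simulated data. The values of 1 complex I gene are not reported here, although it is counted in its groups.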

Additional observations from a re-analysis of the deposited data

How the results depend on the processing

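No paired analysis was possible because each genotype has 1 library. The median log2 ratio of the members was -0.024 as reported. It was -0.033 with no filter on low values, -0.041 for structural subunits alone and -0.050 for members with a transcript over 500 nt. It was 0.019 with the transcript-length trend removed and 0.031 with GC content removed as well. Scaling moved it to 0.063 by the sum, 0.27 by the median ratio, 0.19 by the upper quartile and 0.21 by reference genes. These scalings moved all genes too, by 0.09, 0.30, 0.22 and 0.23 on the log2 scale. The members' median was then above that of all genes by 0.25 to 0.27. Each scaling is 1 factor for all genes, so it could hardly change this distance. With the transcript-length trend removed the distance was 0.02. In alternatives chosen after seeing the data it was 0.071 with the coding-length trend removed and -0.088 for the 53 members without a near-identical copy. The 0 members at least 2-fold higher became 2 by the median ratio (Cox7a1 and Uqcrq), 1 by the upper quartile and 1 by reference genes (Cox7a1), 1 with length and GC removed (Ndufaf4) and 6 at 1.5-fold. The 3 at least 2-fold lower became 0 at a pseudocount of 5, 1 by the median ratio (Cox8b) and 9 at 1.5-fold. They became 2 without Ndufa4l2 when scaled by the sum, the upper quartile or reference genes, with the length trend removed and for subunits alone, and 2 without Cox8b at a filter of 5 FPKM and for transcripts over 500 nt. Values of single genes moved as well: Cox4i2 went from -1.17 to -0.61 at a pseudocount of 5, and Cox7a1 from 0.84 to 1.12 by the median ratio. Signs did not all hold: by the median ratio, the median of complex I went from -0.05 to 0.24. That of complex II went from -0.17 to 0.12 and that of complex V from -0.09 to 0.21. Single genes such as Ndufs3, Ndufs7 and Uqcrc2 also turned above 0. The depth limits Cox8b, Cox4i2 and Cox7a1 most, and without replicates no value here has an estimate of the spread between animals.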

Other observations

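Of the members, 22 have a protein-coding neighbour whose start lies within 1000 nt on the other strand, and in 18 such pairs both genes were compared. Members and neighbours lay on the same side of the all-gene median in 8 of the 18 pairs. Of the neighbours, 0 passed 2-fold, where 2.68% of all genes were higher and 6.22% lower by that size. Sdhd and Timm8b, an import chaperone whose start lies 98 nt away, were both above it: Timm8b was at 149 FPKM in ed/ed and 129 FPKM in f/f (0.20), beside 151 FPKM in ed/ed and 109 FPKM in f/f for Sdhd. Ndufa2 was at 223 FPKM in ed/ed and 189 FPKM in f/f (0.24), while its neighbour Ik, 99 nt away, was at 34.1 FPKM in ed/ed and 63.4 FPKM in f/f (-0.87). Sdha was lower in ed/ed while its neighbour Ccdc127, 29 nt away, was level, at 14.1 FPKM in ed/ed and 14.0 FPKM in f/f (0.01). These pairs were chosen after their values were seen.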
